A study of Mus musculus with 2 samples.

Results

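Osteoblast and mineralisation genes were followed across an allograft and an autograft sample of mouse femur. The set holds 10 genes for regulators of the osteoblast, enzymes of mineralisation and bone matrix proteins other than collagen (Sparc, Alpl, Ibsp, Sp7, Pth1r, Dlx3, Dlx5, Smpd3, Serpinf1 and Postn). Every probe set whose only gene symbol in the platform annotation was one of them was taken, which gave 15 of the 22690 probe sets on the array. A probe set is a group of short oligonucleotides read together as 1 value, and 5 of the 10 genes had 2 of them. Total RNA came from C57BL/6 femur, with 1 array for the allograft and 1 for the autograft. In allografting the tissue comes from another animal of the same species, and in autografting from the recipient itself. The labels give neither the donor and recipient strains, the age of the mice, the time after grafting nor the number of animals behind a sample, and no other treatment is named. Because each graft type was read on 1 array, differences are given without a test or an error, and precision is limited by the number of arrays.

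Osteoblasts build bone in steps. Transcription factors, Sp7 (osterix) and the homeodomain proteins Dlx3 and Dlx5 among them, commit precursor cells to the lineage, and parathyroid hormone and its related peptide act on these cells through the receptor Pth1r. Mature cells lay down a collagen matrix with proteins such as osteonectin (Sparc) and bone sialoprotein (Ibsp), and mineral forms once alkaline phosphatase (Alpl) has removed pyrophosphate, which blocks crystal growth. Several of these genes, among them Alpl, Ibsp, Sp7 and Pth1r, are also used by the hypertrophic chondrocytes of growth cartilage.

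The members did not lie on one side. Sparc was higher in the allograft sample, at 6445 against 2336 in the autograft by one probe set and at 5195 against 942 by the other. Alpl was lower in the allograft, at 2197 against 5241. Pth1r, Sp7 and Dlx3 were also lower there, by 1.91-fold, 1.52-fold and 1.63-fold, whereas Postn and the brighter probe set of Serpinf1 were above the autograft by 1.42-fold and 1.29-fold. Ibsp was split between its probe sets. Intensities are in arbitrary units, and one array's value of a probe set can be set only against the other array's value of the same probe set.

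The stretches of genome before the transcription starts of the genes with the highest and the lowest ratio, Sparc and Alpl, are shown with that of Ibsp, whose probe sets differed in direction. Each is the 250 bases upstream of a start in RefSeq, assembly GRCm38.p6, which holds an entry for 6 of the 10 members. Capitals mark matches on either strand to TATAAA (the TATA box), CCAAT (the CCAAT box), TGTGGT (the core bound by RUNX factors), TAATT (a core bound by homeodomain proteins) or GGGCGG (the GC box bound by SP factors).
Sparc, chr11:55420081-55420330, minus strand: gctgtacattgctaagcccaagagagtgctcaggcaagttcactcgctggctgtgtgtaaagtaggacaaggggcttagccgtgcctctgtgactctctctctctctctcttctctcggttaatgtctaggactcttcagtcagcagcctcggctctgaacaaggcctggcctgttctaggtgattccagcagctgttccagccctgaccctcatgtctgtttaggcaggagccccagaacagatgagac
Alpl, upstream start, chr4:137796385-137796634, minus strand: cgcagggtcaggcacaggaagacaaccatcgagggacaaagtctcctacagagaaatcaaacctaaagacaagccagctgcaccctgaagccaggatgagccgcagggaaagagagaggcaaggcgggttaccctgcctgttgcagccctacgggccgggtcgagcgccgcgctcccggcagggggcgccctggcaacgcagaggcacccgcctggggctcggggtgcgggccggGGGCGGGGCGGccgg
Alpl, downstream start, chr4:137766476-137766725, minus strand: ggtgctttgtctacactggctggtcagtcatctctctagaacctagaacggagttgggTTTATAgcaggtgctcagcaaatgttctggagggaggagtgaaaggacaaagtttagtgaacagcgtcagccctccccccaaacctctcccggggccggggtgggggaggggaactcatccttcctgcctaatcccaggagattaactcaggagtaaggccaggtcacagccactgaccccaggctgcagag
Ibsp, chr5:104299037-104299286, plus strand: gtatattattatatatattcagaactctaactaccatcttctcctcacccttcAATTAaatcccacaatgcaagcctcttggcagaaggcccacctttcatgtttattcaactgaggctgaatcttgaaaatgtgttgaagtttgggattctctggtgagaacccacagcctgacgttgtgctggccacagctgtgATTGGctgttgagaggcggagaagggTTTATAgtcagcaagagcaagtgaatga
The Ibsp stretch holds the TATA box on the opposite strand from -28 to -23 and a CCAAT box on the opposite strand from -54 to -50, counted back from the start, and a TAATT match from -197 to -193. The upstream start of Alpl has 2 overlapping GC boxes between -15 and -5, and its downstream start has 1 TATA match. The Sparc stretch held no match. Among 32851 stretches of the same length in the table, TATAAA was found in 12.4%, CCAAT in 33.9%, TGTGGT in 14.1%, TAATT in 25.03% and GGGCGG in 32.7%. The matches describe the letters only, and expression arrays do not show whether a factor was bound.

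The floor was the median of all non-control intensities, 175.2, and a value at or above it is called above the floor. Lower values were set to it before taking log2, and ratios are given as allograft minus autograft on the log2 scale. Of the 15 member probe sets, 12 were above the floor on both arrays, 1 was above it on the autograft array alone and 2 were below it on both. The deposited values of both arrays had already been brought to one level, with 2% trimmed means of 500.2 and 500.1. Across 7100 genes above the floor on both arrays, each read by its brightest probe set, the median log2 ratio was -0.07 and the SD across genes 0.37. In bulk tissue, fewer cells of a type and less RNA per cell cannot be told apart.

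**Figure D1:**
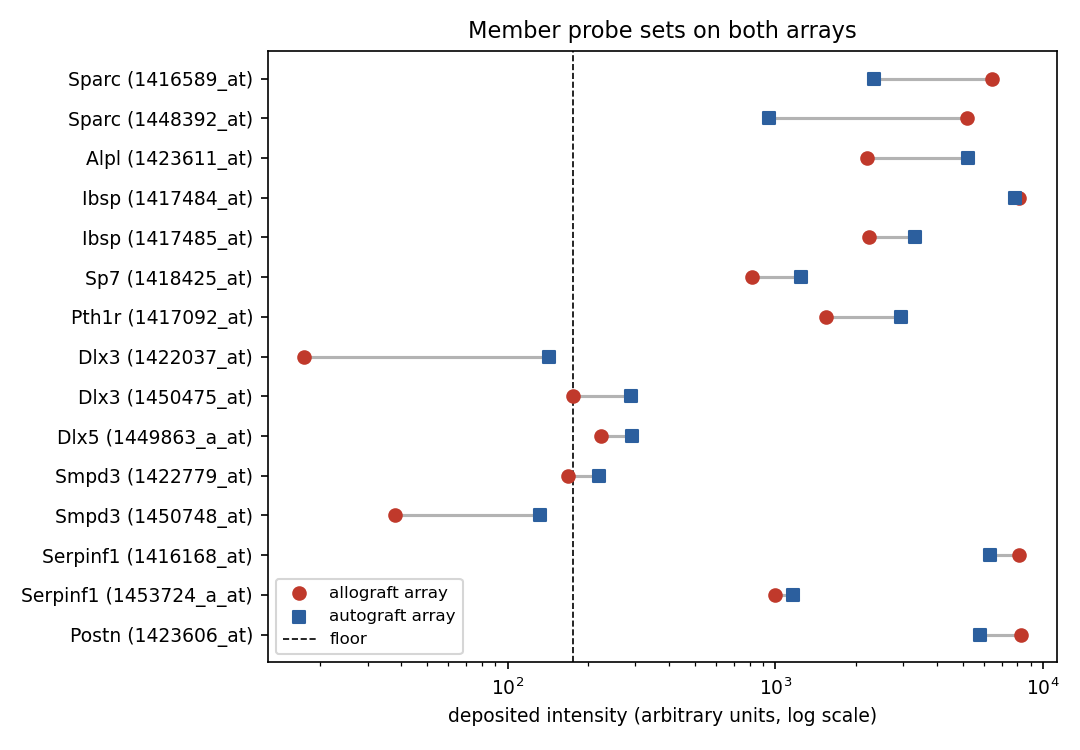
Deposited intensity, on a log axis, of each of the 15 member probe sets on the allograft array (circles) and the autograft array (squares), with the floor of 175.2 as a dashed line. Both Sparc probe sets have the allograft point to the right, Alpl, Pth1r and Sp7 have it to the left, and the dimmer Dlx3 and Smpd3 probe sets lie below the floor on both arrays.

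Of the regulators, Sp7, the zinc finger factor needed for osteoblasts to form, read 817 on the allograft and 1242 on the autograft array, a log2 ratio of -0.60. Dlx3, a homeodomain factor of bone, tooth and skin, read 176.1 and 287.8 by its brighter probe set, a log2 ratio of -0.71. The allograft value stood within 1 unit of the floor, so this ratio is close to being a bound. The other Dlx3 probe set read 17.3 and 142.1, below the floor on both arrays, and no fold is given for it. Dlx5, a related homeodomain factor that acts in osteoblast differentiation, read 222.3 and 290.5, a log2 ratio of -0.39. All of these transcription factors were dimmer on the allograft array, and none was 2-fold apart. Among all genes above the floor on at least 1 array, 59.5% had a ratio below 0.

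Pth1r, the receptor through which parathyroid hormone acts on osteoblasts, read 1545 on the allograft and 2949 on the autograft array. Its log2 ratio was -0.93, just inside 2-fold. This was the second lowest ratio of the members after Alpl.

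Of the mineralisation genes, Alpl read 2197 on the allograft and 5241 on the autograft array, a log2 ratio of -1.25 or 2.39-fold lower in the allograft. It was the only member at least 2-fold lower, and it has 1 probe set, so no second reading of the transcript was at hand. Smpd3, a neutral sphingomyelinase whose loss in mice impairs mineralisation, read 168 and 218.6 by its brighter probe set. The allograft value lay below the floor, and the autograft was at least 1.25-fold higher. Its dimmer probe set, at 38 and 131.7, was below the floor on both arrays. Serpinf1 encodes pigment epithelium-derived factor, a secreted protein whose loss causes a brittle bone disease with poorly mineralised matrix. One probe set read 8141 and 6330, a log2 ratio of 0.36, and the other 994 and 1159, a log2 ratio of -0.22. The Serpinf1 probe sets therefore lay on opposite sides of 0, and neither was 1.5-fold apart.

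Of the matrix proteins, Sparc, the collagen-binding protein osteonectin, had the highest ratios of the members. Its brighter probe set read 6445 and 2336, a log2 ratio of 1.46 or 2.76-fold. Its second probe set read 5195 and 942, a log2 ratio of 2.46 or 5.51-fold. Both gave a higher value in the allograft, but the size differed between them by 0.999 on the log2 scale. In 1925 genes whose brightest and next probe sets could both be read on both arrays, the median difference between these readings, regardless of sign, was 0.26, and in 50 of them (2.60%) it was at least as large as in Sparc. Type I collagen, the fibre that osteonectin binds, was higher in the allograft too, with Col1a1 at 4994 against 771 (log2 ratio 2.70) and Col1a2 at 5111 against 2362 (1.11). Their second probe sets read 2736 against 31.3 and 445.5 against 14.9, below the floor on the autograft array, which gives bounds of 3.96 and 1.35 on the log2 scale.

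Ibsp, an acidic phosphoprotein of bone that binds cells and mineral, read 8109 on the allograft and 7811 on the autograft array by its brighter probe set, a log2 ratio of 0.05. Its other probe set read 2242 and 3315, a log2 ratio of -0.56. The bright reading was nearly level between the arrays and the other was 1.48-fold lower in the allograft. A difference between probe sets at least as large as in Ibsp was seen in 14.3% of the 1925 genes, and one as large as in Serpinf1 in 15.9%. Postn, periostin, a matrix protein of the periosteum and of tendon and ligament, read 8256 and 5817, a log2 ratio of 0.51. At 1.42-fold it did not reach 1.5-fold.

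Read by the brightest probe set, 4 of the 10 members had a ratio above 0 and 6 below 0, where among all 7836 genes above the floor on at least 1 array 40.5% were above 0. The members' median was -0.35, with the bound of Smpd3 at its value, beside -0.08 for all those genes. It became 0.05 when the floor was raised to the 75th percentile, which leaves out Dlx3, Dlx5 and Smpd3. The ratios ran from -1.25 in Alpl to 1.46 in Sparc with an SD of 0.80 across the members. Of the 9 members above the floor on both arrays, 1 was at least 2-fold higher, where 0.859% of the 7100 genes were, and 1 at least 2-fold lower, where 0.62% were. At 1.5-fold, 1 was higher, against 4.07% of all genes, and 4 were lower, against 6.23%: Alpl, Pth1r, Dlx3 and Sp7. Of the 2-fold differences over all genes 58.1% were higher in the allograft, a share that was 70.0% after centring on the 75th percentile and 72.3% after removal of the trend with intensity. Lowering the floor to the 25th percentile gave 39.1%, and counting at 1.5-fold 39.5%, where the larger group was the lower one.

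A factor applied to a whole array cancels when members are set against each other. Each pair here sets a member higher in the allograft by its brightest probe set against a lower one. Sparc and Alpl are the highest and the lowest member, so a large difference between them follows from the choice. The log2 ratio of Sparc minus that of Alpl was 2.72, so that Sparc relative to Alpl was 6.58-fold higher on the allograft array. By its second probe set Sparc was 13.2-fold higher relative to Alpl. Postn was 3.39-fold higher relative to Alpl and 2.16-fold relative to Sp7. Ibsp relative to Alpl was 2.48-fold higher by its brighter probe set and 1.61-fold by the other, and Serpinf1 relative to Pth1r 2.45-fold and 1.64-fold. A trend of the ratio with intensity does not cancel in these values. With that trend removed by a lowess fit, Sparc by its brighter probe set was 6.45-fold higher relative to Alpl, and Postn 3.02-fold relative to Alpl and 1.72-fold relative to Sp7. Ibsp relative to Alpl was then 2.16-fold and 1.67-fold higher, and Serpinf1 relative to Pth1r 2.03-fold and 1.71-fold. None of these differences has a replicate.

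Bright member probe sets were mostly higher in the allograft and dimmer ones lower. All 4 member probe sets with a mean intensity of at least 4000 had a ratio above 0, from 0.05 in Ibsp to 1.46 in Sparc. Of the 8 below 4000 and above the floor on both arrays, 1 was above 0, the second Sparc probe set, and the others were below 0. The division at 4000 was chosen after the values were seen, and the nearest members on either side of it were Alpl, with a mean of 3719, and Sparc, with 4390, which lay in opposite directions. The same trend was present over the whole array, where 80.6% of the 787 probe sets at or above 4000 were above 0, with a median of 0.27, against 40.9% of those under 4000, with a median of -0.07. The 7 bacterial and phage control probe sets brighter than 2500 stood between 0.24 and 0.43. The part of this trend in the members' ratios was not tested.

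Each member was therefore set beside the 500 probe sets nearest to it in mean log2 intensity. The bright probe sets of Ibsp, Serpinf1 and Postn share the same 500, whose median was 0.30 and whose central 95% ran from -0.26 to 0.75. Serpinf1, at 0.36, and Postn, at 0.51, lay inside that range above its median, and Ibsp, at 0.05, lay inside it below the median. Both Sparc probe sets were above their ranges, which ended at 1.16 and 0.999. Alpl was below a range that began at -0.56, Pth1r below one that began at -0.77 and Dlx3 below one that began at -0.66. The remaining ones read on both arrays lay inside theirs, Ibsp (-0.56) and Sp7 in the lower part. In all, 5 of the 12 member probe sets lay outside the central 95%, and 8 of the 12 were below the median of their neighbours. The 5 include both probe sets of Sparc, which read the same gene, and Dlx3, whose range is cut by the floor. After quantile normalization the bright probe set of Ibsp stood at -0.25, below 0, and those of Serpinf1 and Postn at 0.04 and 0.20.

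**Figure D2:**
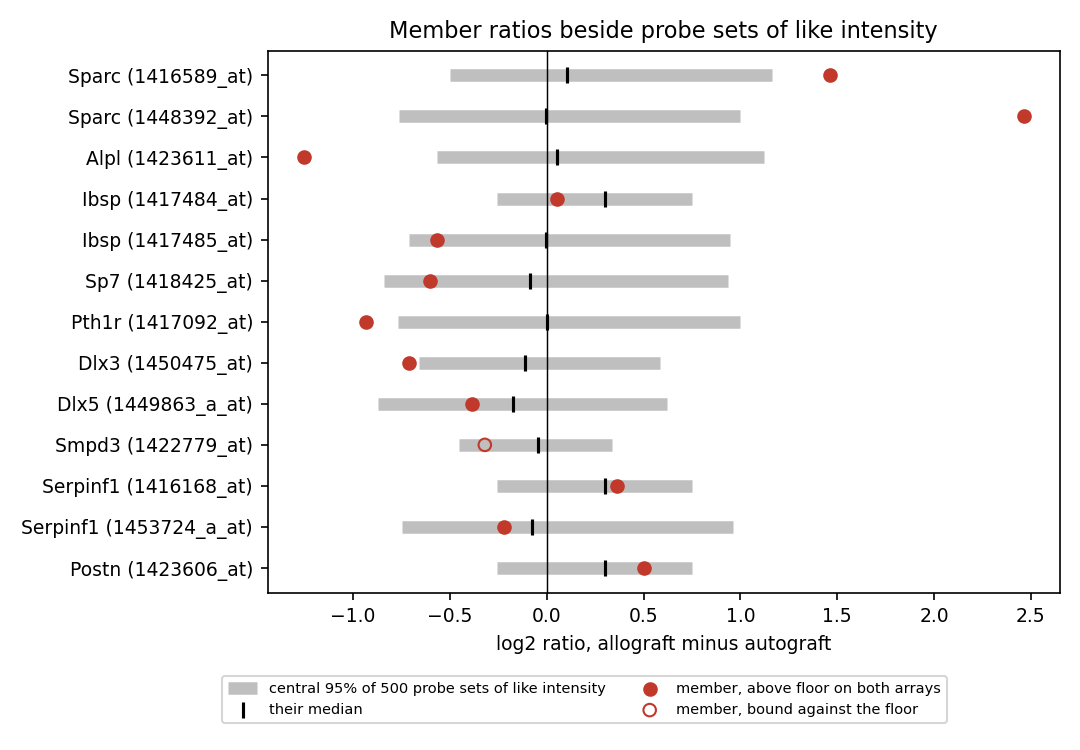
Log2 ratio of each member probe set above the floor on at least 1 array (filled circles, or open for the bound of Smpd3), over a grey bar for the central 95% and a black tick for the median of the 500 probe sets nearest in mean log2 intensity. Both Sparc points lie to the right of their bars and Alpl, Pth1r and Dlx3 to the left, while the other points fall on their bars. Bars close to the floor, that of Dlx3 among them, are narrowed by it.

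**Figure D3:**
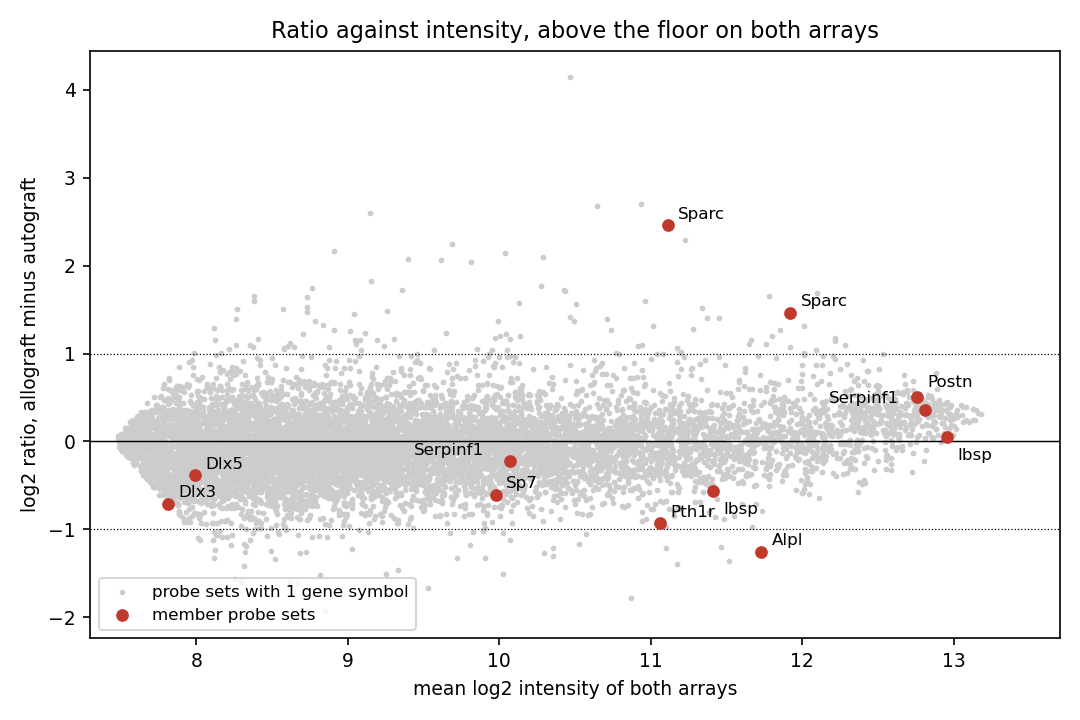
Log2 ratio against mean log2 intensity of every probe set with 1 gene symbol above the floor on both arrays (grey), with the 12 member probe sets in red and dotted lines at 2-fold. The grey cloud bends upward at the bright end, where Ibsp, Serpinf1 and Postn lie, and Sparc stands above the cloud and Alpl below it.

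The other genes of these pathways were taken from lists. Of 15 further osteoblast transcription factors 13 had a probe set of their own, and 8 of these were above the floor on at least 1 array. Of the 8, 3 were above 0 and 5 below, none was 2-fold apart, and the median was -0.22. Jund, a partner in AP-1 factors, was lowest at -0.89 (2109 against 3900), and Twist1, a factor that restrains osteoblast differentiation, was highest at 0.45 (342 against 251). Dlx6, the neighbour and relative of Dlx5, read 57.9 and 105.6, below the floor on both arrays, as did Dlx1 and Dlx2. Runx2, which acts before Sp7 in the lineage, was not analysed here.

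Genes of phosphate and mineral metabolism had 8 of 12 members with a probe set above the floor, 5 above 0 and 3 below, with a median of 0.10 and none 2-fold apart. After quantile normalization this median was 0.00. Mgp, matrix Gla protein, which holds mineral back in soft tissue and cartilage, was highest at 0.94 (6596 against 3435). Phex, a membrane peptidase of osteoblasts and osteocytes that guards phosphate balance, was lowest at -0.65 (832 against 1309). Enpp1, which makes the pyrophosphate that Alpl removes, and Phospho1, which frees phosphate inside matrix vesicles, were not analysed here. The enzymes of sphingomyelin and ceramide, the pathway of Smpd3, had 11 of 11 members that could be read, 2 above 0 and 9 below, a median of -0.11 and none 2-fold apart. They ran from Sphk2 at -0.57 to Sphk1 at 0.31, kinases of the same substrate, sphingosine. After the lowess fit 4 of these enzymes were above 0 and 7 below, with a median of -0.03. Over all genes above the floor on at least 1 array, 59.5% were below 0 in the main setting.

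Further matrix and matricellular proteins had 13 of 16 members above the floor, 7 above 0 and 6 below, with a median of 0.01. Omd, osteomodulin, a keratan sulphate proteoglycan of bone, was the 1 gene 2-fold lower at -1.27 (811 against 1952), close to Alpl. Sparcl1, a relative of Sparc, was highest at 0.85 (1230 against 681). Tgfbi, the relative of Postn that shares its fasciclin domains, stood at 0.51 (6002 against 4201), and its other probe sets at 0.38, 0.39 and 0.89. Bglap and Spp1, osteocalcin and osteopontin, were not analysed here. The list around Pth1r had 8 of 14 members above the floor, 3 above 0 and 5 below, and a median of -0.10, which became 0.01 after centring on the 75th percentile. Gna11, a G protein subunit to which the receptor can couple, stood at -1.04 (570 against 1172), with a second probe set at -0.43. Gnas, which encodes the stimulatory subunit of the same pathway, stood at 0.63 (7177 against 4651). Pth itself read 42.2 and 45.0, below the floor, and Pthlh was not analysed here.

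**Figure D4:**
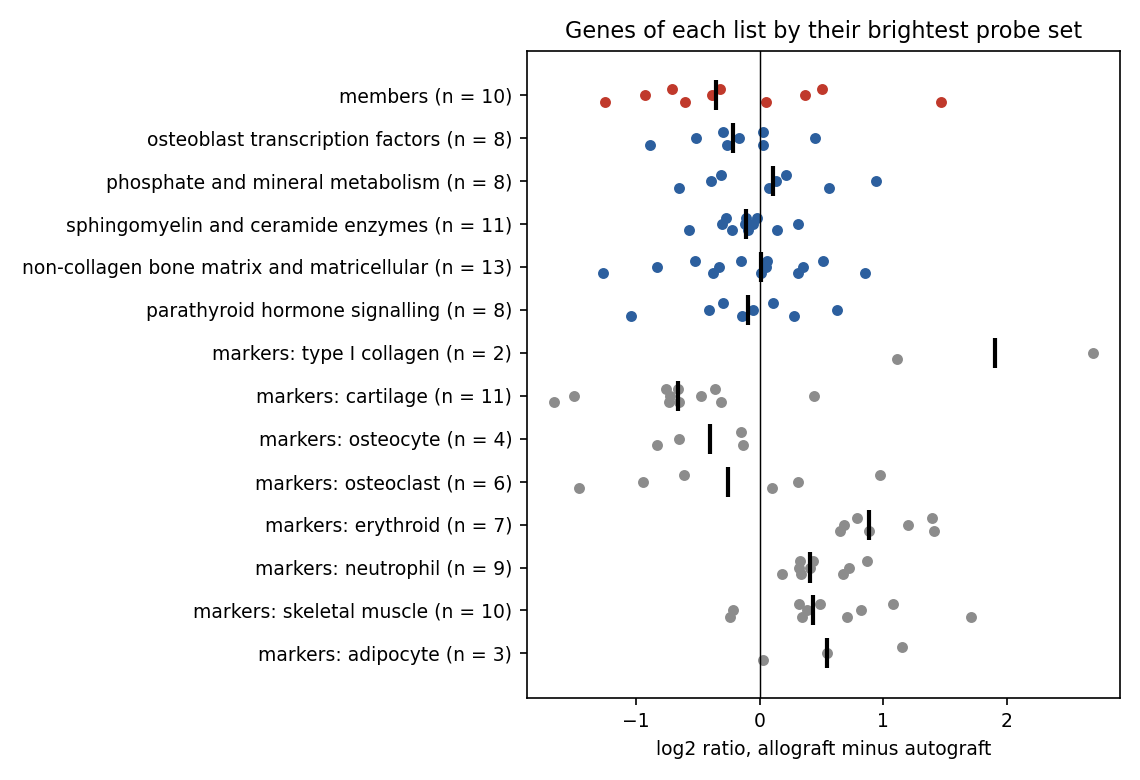
Log2 ratio of each gene above the floor on at least 1 array, by its brightest probe set, for the members (red), the pathway lists (blue) and the marker lists of bone cells and other tissues (grey), with a black bar at each median and the number of genes in brackets. The members spread from -1.25 to 1.46, cartilage and osteocyte markers lie mostly to the left of 0 and erythroid and neutrophil markers to the right.

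Markers of other cells in a femur sample also differed between the arrays, in both directions. Cartilage markers, which share Alpl, Ibsp, Sp7 and Pth1r with bone at the hypertrophic stage, had 10 of 11 genes below 0. Their median was -0.66, and their summed intensity was 23674 on the allograft against 30281 on the autograft array. Sums in this paragraph take in every gene of a list with a probe set of its own. They include genes below the floor, and bright genes weigh most in them. The highest cartilage marker, Col2a1, stood at 0.44 (6121 against 4511). The lowest, Col9a3, stood at -1.67, with a second probe set at -0.21. Col10a1, the collagen of hypertrophic cartilage, read 362 and 1029, a log2 ratio of -1.51, which is lower than that of Alpl. Osteocyte markers had 4 of 4 genes below 0, with a median of -0.40, a summed intensity of 3949 against 5352, and Dmp1 lowest at -0.83. Dmp1 and Mepe were already counted among the further matrix proteins, and Phex in mineral metabolism, by the same probe sets. Over all genes above the floor on at least 1 array, 59.5% were below 0 and 40.5% above 0. Sost and Fgf23, defining osteocyte genes, were below the floor on both arrays. Erythroid markers had 7 of 7 genes above 0 (summed 18359 against 9067) and neutrophil markers 9 of 9 (46476 against 35157), or 8 of 9 after quantile normalization or the lowess fit, with S100a8 then below 0 at -0.13 and -0.12. As given above, most bright probe sets of the whole array were above 0. Skeletal muscle markers had 8 of 10 above 0 (51454 against 39154), adipocyte markers 3 of 3 (12830 against 7647) and osteoclast markers 3 of 6 (23799 against 20133), or 2 of 6 after either of these scalings. The part of these cells in the members' ratios was not tested. As a sign of RNA quality, the beta-actin control read at its 3' end was 1.77 times that at its 5' end on the allograft array and 1.19 times on the autograft array. For the Gapdh control the same quotient was 0.194 and 0.0349, far below 1 on both arrays. Their part in the members' ratios was not tested either.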

How the data were processed

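Total RNA from 1 allograft and 1 autograft sample of mouse femur was measured on 1 array each, grouped by their titles. The authors deposited 1 intensity per probe set, judged linear from the values; how the authors corrected and scaled them is not given in the sources used here. Of 22690 probe sets 64 were controls, and 20380 of the rest had 1 gene symbol. Entrez identifiers of all 10 members matched RefSeq (GRCm38.p6). Values below the median non-control intensity (175.2) were set to it and log2 was taken. A gene was read by its brightest probe set (mean of both log2 values). Counts are of genes at least 2-fold or 1.5-fold apart; no test was made between single arrays. Promoter stretches came from the RefSeq table, searched by exact match. Genes named were all members and, of each pathway list, those at least 2-fold apart, the highest and the lowest, and Runx2, Bglap, Spp1, Omd, Enpp1, Phospho1, Pthlh, Dlx6 and Tgfbi; of marker lists, the highest and the lowest, of which the text gives a selection. Col1a2, Col10a1, Sost, Fgf23, Dlx1, Dlx2 and Pth were chosen after their values were seen. The members and lists were chosen with earlier results of these data known. The alternatives were other scalings, floors, probe set rules and folds. The counting step was run on simulated data with planted changes larger than 2-fold, in bright genes only and with less spread than these arrays showed. That run checks the code, not how well small or dim differences are called. Python 3.11.15, numpy 2.4.6, pandas 2.3.3, statsmodels 0.14.6 and matplotlib 3.10.9 were used.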

Additional observations from a re-analysis of the deposited data

How the results depend on the processing

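A total of 12 alternatives were tried, 2 of them folds that change counts only. No ratio that was at least 2-fold in the main setting moved across 0. The medians of the members and pathway lists were all closer to 0 than 2-fold, so this rule could not apply to them. Under the 10 other settings, the median of the further matrix proteins, 0.01 in the main setting, fell below 0 in 3. The medians of the members, of mineral metabolism and of the Pth1r list each changed sign in 1. Sparc stayed above 0 under all 10 settings of scaling, floor and probe set, from 1.32 to 2.46, the latter by its dimmest probe set. Alpl stayed below 0, from -1.40 to -1.19, and Pth1r, from -0.94 to -0.87. All 3 genes are bright, so a raised or lowered floor left their values unchanged. Alpl and Pth1r have 1 probe set each, so the probe set rules could not change them either. The brightest probe set of Ibsp changed sign, at -0.25 after quantile normalization and -0.24 after subtraction of a lowess fit on intensity. By its dimmest probe set Serpinf1 stood at -0.22 and Ibsp at -0.56. Read by the brightest probe set, 4 members were lower at 1.5-fold, and at 4-fold 0 were higher and 0 lower. The second Sparc probe set, which these counts leave out, was 5.51-fold higher in the allograft. Over all named genes, 289 were higher and 442 lower at 1.5-fold, and 6 and 0 at 4-fold. With the floor at the 25th percentile 109 were higher and 170 lower, with it at the 75th 29 and 13, and after the lowess fit 73 and 28, against 61 and 44 in the main setting. Without replicates, a ratio was taken to have moved when it changed by more than 0.43, the SD of the difference between the ratios of 2 probe sets of a gene. Dim members (Dlx3, Dlx5 and Smpd3) are read near the floor, and the deposited table does not give the background. No paired analysis was possible because each graft type has 1 array.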
